A study of Rattus norvegicus with 72 samples.

Results

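Sensory neurons of the rat hind limb have their cell bodies in dorsal root ganglia, chiefly those at lumbar levels L4 and L5, and send axons down the sciatic nerve. When that nerve is crushed, signals travel along the axon to the cell body, and over hours to days the neurons switch on transcription factors such as Atf3, Jun and Sox11 and, after them, growth-associated proteins and neuropeptides. Satellite glia wrap each cell body and respond to the injury as well. The comparison described here covers the hours in which that program becomes visible in the ganglion: 4 arrays at 12 and 16 h after a crush labelled proximal against 3 arrays at 8 h after the same crush, 7 of the 72 arrays of the series.

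All animals were Wistar rats of 8 to 12 weeks. The 12 h and 16 h groups had 2 arrays each, lettered a and b in the titles, and the 8 h group had 3, lettered a to c. Beside these, 3 sham arrays of 8 h, the later proximal arrays of 18, 24 and 28 h (3 each) and the distal lesion at 12 and 16 h (3 and 2 arrays) and at 8 h (5 arrays) were used for comparison, and sham arrays of 12 and 16 h entered no comparison. The labels give neither the distance between the proximal and distal sites nor whether each array is a different animal. The p-values therefore refer to spread among arrays, which may be technical, and the few arrays of each hour limit precision. Every value is a log2 intensity of 1 probe set per gene, so a difference of 1 is a doubling. A ganglion holds several cell types, and fewer cells of a type cannot be told apart from less RNA per cell.

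These arrays differ technically among themselves. All 72 arrays were clustered on probe sets too dim to be tested and divided into 4 technical sets, a number that was chosen and not found by the clustering. The 8 h arrays, 12 h a and 16 h a lay in a set of 18 arrays with a narrow spread of intensities (interquartile range between 2.73 and 3.14 log2 units), while 12 h b and 16 h b lay in a set of 9 arrays with a wide spread (3.60 to 3.78). On the first principal component of the 7 arrays, which held 66.9% of their variance, 12 h b and 16 h b stood at 41.4 and 49.4 and the other arrays between -29.0 and -10.1. The narrow-set arrays 12 h a and 16 h a are therefore the direct match to 8 h. Each result is given by array, and differences are given for all 4 arrays, for the narrow set alone and, where it matters, with technical set as a block in the fit. The median difference of all 12276 genes tested was 0.04 with all 4 arrays, -0.10 within the narrow set and 0.22 with the wide-set arrays alone. Skeletal muscle genes marked out 1 further array: their summed linear intensity was 20370 in 12 h a and 6839 to 7519 in the other 3 arrays, against 7854 to 8614 at 8 h. Sensory neuron markers, 22 of 22 above the filter level in at least 1 of the 7 arrays, summed to between 134400 (16 h a) and 165700 (16 h b) at 12 and 16 h, against 140500 to 150100 at 8 h.

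By limma on all arrays, 283 of 12276 genes (2.31%) differed at an adjusted p under 0.05. Of these 199 rose (1.62% of the genes tested) and 84 fell (0.684%), with 55 rises and 6 falls of at least a doubling or halving. All 4 arrays of 12 and 16 h lay above all 3 of 8 h for 153 of the 199 genes that rose, against 4.46% of all genes tested, and below them for 76 of the 84 that fell, against 4.94%. The fit used these differences, so the second pair of shares describes the calls and is no further support. When technical set entered as a block, 167 genes were higher (1.36%) and 978 lower (7.97%), so the split between rises and falls depends on how the sets are handled, and 178 of the 283 genes (110 higher, 68 lower) were called in both fits. Within the narrow set 8 were higher (0.0652%) and 15 lower (0.122%), yet each of the 283 genes had the same sign there.

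**Figure D1:**
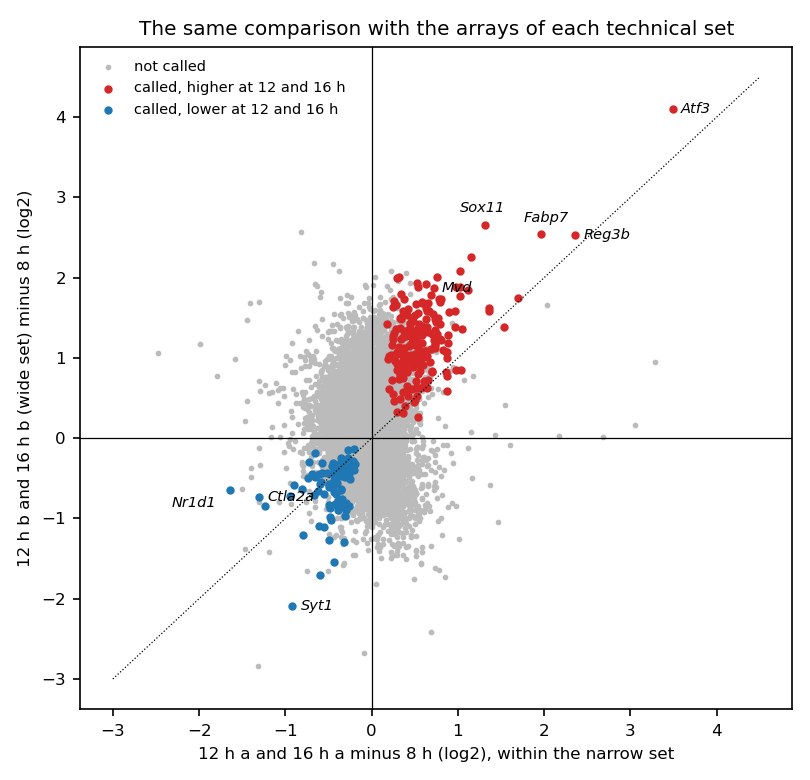
Log2 difference from the 8 h arrays of each of the 12276 genes, with 12 h a and 16 h a on the horizontal axis and 12 h b and 16 h b on the vertical axis; coloured points are the 199 genes called higher (red) and 84 called lower (blue) with all 4 arrays, and the dotted line marks equal differences. Every coloured point has the same sign on both axes, and most red points lie above the dotted line, since differences were larger in the wide-set arrays.

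Atf3 had the largest difference among the genes that rose, and the injury-response factors Sox11 and Jun rose as well. Atf3, a stress-induced factor that marks axotomised sensory neurons, had 10.58 and 11.46 at 12 h and 11.42 and 11.75 at 16 h, against 7.79, 7.46 and 7.26 at 8 h. The lowest later array stood more than 2 log2 units above the highest 8 h array. The difference was 3.80 ± 0.48 (SE), 13.9-fold, with an adjusted p of 1.64e-06 by limma, and it was 3.49 within the narrow set. Sox11, a factor of neuron development that injured neurons express again, had 6.22 and 7.31 at 12 h and 6.50 and 8.10 at 16 h, against 5.21, 5.03 and 4.90 at 8 h. The groups did not overlap, but the wide-set arrays b were higher than the arrays a at both hours. Because the 8 h mean of 5.05 is under the filter level of 5.46, the change of Sox11 is given as at least 2.96-fold (adjusted p 8.73e-05), and within the narrow set alone it did not pass the test (adjusted p 0.0759). Jun, the AP-1 subunit that partners with Atf3, had 10.56 and 11.51 at 12 h and 10.65 and 11.68 at 16 h, against 9.99, 10.04 and 9.89 at 8 h, a difference of 1.12 ± 0.23 (adjusted p 0.00323). Its narrow-set arrays exceeded every 8 h array by a smaller margin, 0.63 on average (adjusted p 0.307). Meox1, a homeobox factor, rose at least 2.75-fold, with levels of 6.55 to 7.60 at 12 and 16 h and 5.31 to 5.55 at 8 h.

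Reg3b and Reg3a, lectins that are small secreted proteins induced in injured neurons, both rose. Reg3b had 8.53 and 8.89 at 12 h and 10.21 and 10.19 at 16 h, against 6.82, 6.77 and 7.43 at 8 h. The letters hardly mattered for this gene: a and b differed by less than the hours did. Its difference was 2.45 ± 0.33, or 5.45-fold (adjusted p 7.38e-06), and 2.36 within the narrow set (adjusted p 0.00101). Reg3a had 6.75 and 7.28 at 12 h and 8.42 and 7.99 at 16 h, against 5.99, 5.71 and 5.95 at 8 h, a 3.31-fold rise (adjusted p 0.00172). Again the groups did not overlap and both 16 h arrays were above both 12 h arrays.

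Among stress and membrane genes, Gadd45a, which acts in growth arrest and the response to DNA damage, had 10.59 and 11.12 at 12 h and 11.54 and 11.52 at 16 h, against 9.73, 9.90 and 9.48 at 8 h. It rose 2.81-fold (difference 1.49 ± 0.31, adjusted p 0.00349), with no overlap. Flrt3, a leucine-rich repeat membrane protein, had 8.75 and 9.11 at 12 h and 10.42 and 9.75 at 16 h, against 8.04, 8.23 and 7.86 at 8 h, a 2.76-fold rise (adjusted p 0.00495) that was 1.54 within the narrow set and 1.39 in the wide-set arrays. Nabp1, a single-stranded DNA-binding protein, had 7.11 and 7.55 at 12 h and 8.23 and 8.21 at 16 h, against 6.26, 6.57 and 6.10 at 8 h, and rose 2.77-fold (adjusted p 0.000116). All 3 genes were above the 8 h arrays in arrays of either set. Hspa2, of the 70 kDa heat shock family, rose 3.27-fold (7.65 and 9.26 at 12 h and 8.97 and 9.59 at 16 h, against 6.93, 7.32 and 7.24 at 8 h), with 12 h a only slightly above the 8 h arrays. B3gnt5, a glycosyltransferase of glycolipid synthesis, rose 2.93-fold (6.95 and 8.35 at 12 h and 8.26 and 8.97 at 16 h, against 6.67, 6.89 and 6.20 at 8 h).

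**Figure D2:**
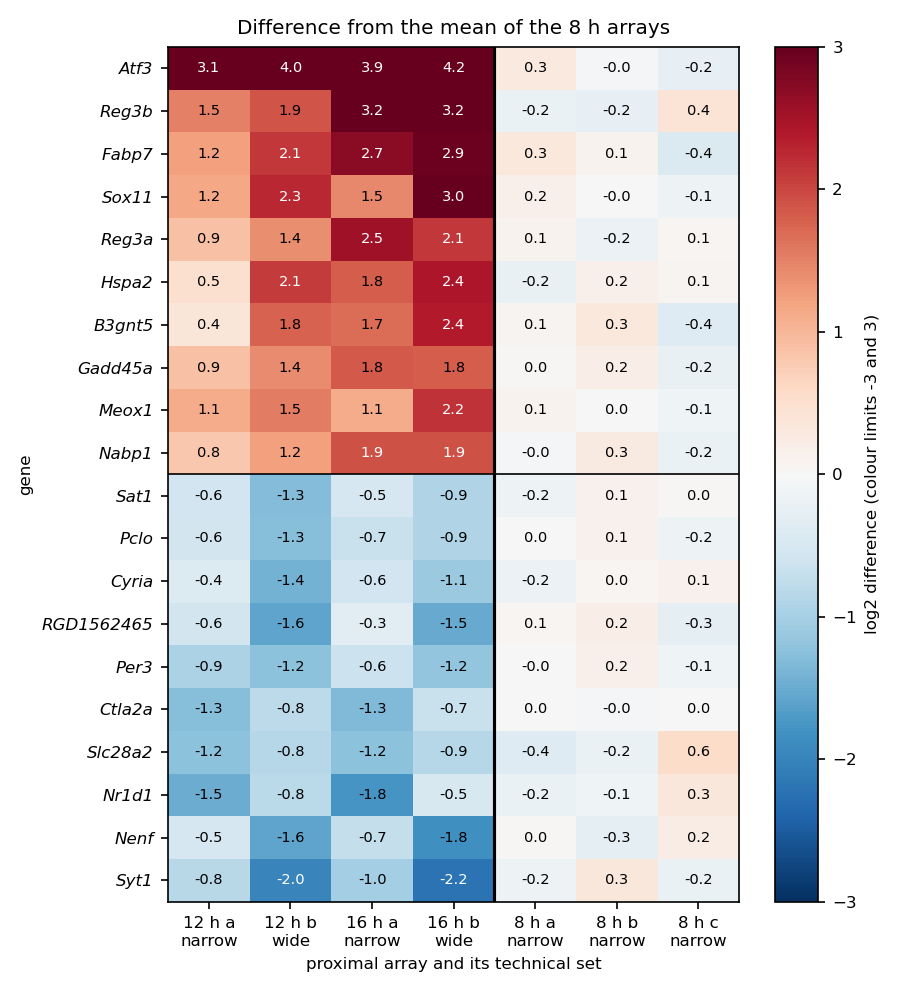
Log2 difference of each array (columns) from the mean of the 3 arrays of 8 h, for the 10 largest rises and the 10 largest falls (rows) among called genes whose 4 later arrays all lie on one side of the 8 h arrays; the 4 arrays of 12 and 16 h are left of the black line, each with its technical set. Atf3, Reg3b, Reg3a, Gadd45a and Nabp1 differ in arrays of both sets, while Syt1, Nenf and RGD1562465 differ more in the wide-set arrays 12 h b and 16 h b and Nr1d1 and Ctla2a more in 12 h a and 16 h a.

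Of 49 tested genes on a list of injury and regeneration-associated genes, 9 rose and 0 fell (21 higher and 0 lower at an unadjusted p under 0.05, which 10.7% of all genes tested passed upward and 6.3% downward), with a median difference of 0.33 beside 0.04 for all genes tested. With technical set as a block 9 were higher and 1 lower, and within the narrow set 2 were higher. The 9 were Atf3, Jun, Sox11, Gadd45a, Flrt3, Reg3b, the cAMP-responsive modulator Crem (0.97, adjusted p 0.0149), the antioxidant enzyme Srxn1 (0.41, adjusted p 0.0169) and Vgf, a secreted protein of dense-core granules. Vgf had 10.46 and 10.41 at 12 h and 9.51 and 10.35 at 16 h, against 9.37, 8.93 and 8.98 at 8 h, a 2.13-fold rise (adjusted p 0.00141), and its 16 h a value lay nearest to the 8 h arrays. Membership of this list was known to respond in these samples, so its count is not independent evidence.

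Several known genes of the injury response did not pass the test at 12 and 16 h. Galanin (Gal) had 8.83 and 8.65 at 12 h and 9.09 and 8.77 at 16 h, against 9.06, 8.80 and 9.05 at 8 h, while its means at 18 and 28 h were 9.78 and 10.31. Vasoactive intestinal peptide (Vip) had 5.16 and 4.97 at 12 h and 5.75 and 5.18 at 16 h, against 5.25, 5.13 and 5.43 at 8 h, and averaged 7.61 at 18 h. Both neuropeptides overlapped with 8 h throughout, with differences of -0.14 ± 0.14 and -0.01 ± 0.20. Neuropeptide Y (Npy) differed by -0.21 ± 0.17 (adjusted p 0.558), the growth cone protein Gap43 by 0.03 ± 0.08 (adjusted p 0.893) and Sprr1a, a small proline-rich protein of regenerating axons, by -0.38 ± 0.27 (adjusted p 0.49). Csrp3, a LIM protein known from muscle that injured neurons also express, was 7.07 in 12 h a, the array with the raised muscle genes, and 5.53 to 5.97 in the other 3, against 6.02 to 6.18 at 8 h. The part of muscle RNA in that value was not tested.

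**Figure D3:**
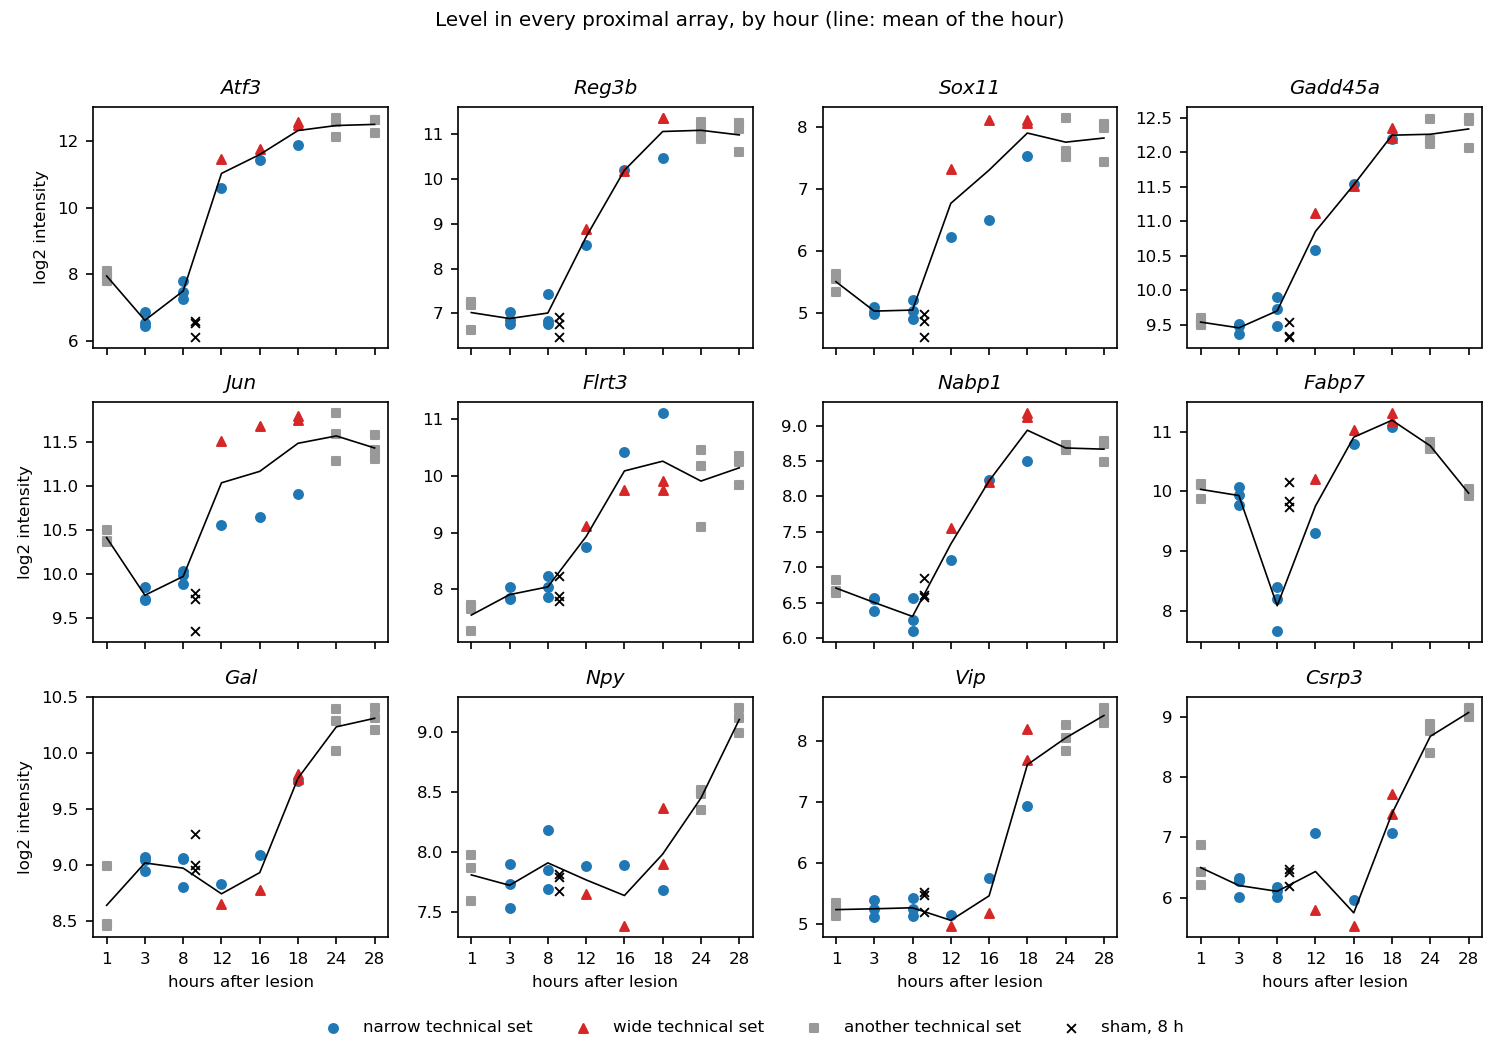
Log2 intensity of 12 genes in every proximal array from 1 to 28 h (horizontal axis, hours in order, not to scale) with the mean of each hour as a line, symbols by technical set and the 3 sham arrays of 8 h as crosses. Atf3, Reg3b, Sox11, Gadd45a, Jun, Flrt3 and Nabp1 are above the 8 h arrays in every array of 12 and 16 h, whereas Gal, Npy and Vip overlap with 8 h until 16 h and are higher at 24 and 28 h.

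Over all 22 proximal arrays, the genes whose levels followed Atf3 most closely were Gadd45a (Pearson r 0.974), Sox11 (0.968), Rassf10 (0.967), Reg3b (0.966) and Adamts8 (0.963). These correlations describe arrays that share hours and technical sets. Adamts8, a secreted metalloprotease, rose by 0.99 ± 0.20 (adjusted p 0.00239) and Rassf10, of a Ras-association family, by 0.93 ± 0.20 (adjusted p 0.00564). Among the 10 genes most raised in proximal over sham arrays at 18 to 28 h, Atf3, Reg3b, Flrt3, Reg3a, Gadd45a and Sox11 had risen by 12 and 16 h, while the other 4 (Il6, Tnfaip6, Tslp and Vip) did not pass the test of both hours together. Il6, a cytokine, had 4.82 and 4.48 at 12 h and 5.96 and 5.47 at 16 h, against 4.22, 4.01 and 4.40 at 8 h. Its 4 arrays exceeded the 8 h arrays, but most values were under the filter level and the adjusted p was 0.148, while 16 h alone passed against 8 h (adjusted p 0.0464). In all, 48 of the 199 genes that rose were also higher in proximal than in sham arrays at 18 to 28 h. That is 24.1% of the 199, beside 5.35% of all genes tested. It is 7.31% of the 657 later genes, beside the 1.62% of all genes tested that rose at 12 and 16 h. For falls the overlap was 9 genes, 10.7% of the 84, beside 4.36% of all genes tested. It is 1.68% of the 535 later ones, beside the 0.684% of all genes tested that fell at 12 and 16 h.

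A rise over 8 h is not always a rise over sham. For 111 of the 199 genes (55.8%) all 4 arrays of 12 and 16 h also lay above the 3 sham arrays of 8 h, against 9.59% of all genes tested, and 47 of the 84 that fell lay below them (56.0%, against 4.55%). The same 4 arrays had chosen these genes, so the shares describe the calls and are no further support. Fabp7, a fatty acid-binding protein of glia, was not among these 111. It had 9.30 and 10.21 at 12 h and 10.79 and 11.03 at 16 h, against 8.40, 8.19 and 7.65 at 8 h, a 4.75-fold rise (2.25 ± 0.31, adjusted p 8.29e-06) seen in arrays of both sets. Its sham level at 8 h was 9.90 ± 0.22 (SD, n = 3), above both the proximal 8 h mean of 8.08 and the 12 h a value. B3gnt5 likewise averaged 7.84 ± 0.27 in sham arrays of 8 h, above its proximal 8 h mean of 6.58 and above 12 h a. The membrane-bound protein kinase C substrate Marcks rose by 1.23 ± 0.28 over 8 h (adjusted p 0.00994), with a mean of 10.98 at 12 and 16 h, 9.75 at 8 h and 10.65 in sham arrays of 8 h. Crem averaged 9.19 in those sham arrays, above its proximal 8 h mean of 8.45 and its 12 h a value of 8.76. The macrophage marker Aif1 averaged 6.78 in them, beside 6.85 at 12 and 16 h and 5.75 at 8 h after the proximal lesion.

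Markers of other cell types of the ganglion included genes called in both directions, in shares to be read beside 2.31% of all genes tested. Of 10 tested satellite glia markers 3 were called: Fabp7 and Sostdc1 rose and S100b, a calcium-binding protein of glia, fell slightly (-0.16 ± 0.04, adjusted p 0.0273). Sostdc1, a secreted inhibitor of BMP and Wnt signals, had 9.61 and 10.47 at 12 h and 10.13 and 10.96 at 16 h, against 9.35, 9.19 and 8.96 at 8 h, a 2.18-fold rise, and its sham 8 h mean was 9.59. Gfap, the intermediate filament of reactive glia, averaged 8.64 against 8.12 at 8 h and did not pass the test (0.52 ± 0.22, adjusted p 0.20). Of 13 Schwann cell markers 2 were called: the myelin protein Mag (0.72 ± 0.17, adjusted p 0.0142) and the myelin enzyme Cnp (0.40 ± 0.10, adjusted p 0.0284) rose. Among 24 macrophage markers 1 rose: Aif1 had 5.89 and 7.21 at 12 h and 7.10 and 7.19 at 16 h, against 6.04, 5.72 and 5.49 at 8 h, so 12 h a overlapped with 8 h, its other probe set gave -0.92 (adjusted p 0.142), and with technical set as a block it did not pass (adjusted p 0.0658). Lipoprotein lipase (Lpl), 1 of 4 tested adipocyte markers, rose by 1.14 ± 0.25 (adjusted p 0.00666), and Egfl7, a secreted protein of endothelium and 1 of 16 tested endothelial markers, fell by 0.43 ± 0.12 (adjusted p 0.0449). The endothelial list as a whole went the other way, with 13 of its 16 genes positive. Its median was 0.20 with all 4 arrays and 0.04 within the narrow set. The 24 macrophage markers summed to 12930 to 15310 at 12 and 16 h and 15640 to 16920 at 8 h.

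The chemokines Ccl2 and Ccl7, which attract monocytes, rose, while Ccl3 (-0.12), Ccl4 (-0.33) and Ccl5 (-0.37) did not pass the test. Ccl2 had 10.60 and 10.82 at 12 h and 10.94 and 10.96 at 16 h, against 9.63 to 10.03 at 8 h, a 1.92-fold rise (adjusted p 0.0409). Ccl7, encoded in the same cluster, had 7.17 and 7.18 at 12 h and 7.63 and 7.36 at 16 h, against 6.39, 6.29 and 6.56 at 8 h, a 1.89-fold rise (adjusted p 0.0321). In both genes the letters a and b differed little, but with technical set as a block Ccl2 did not pass (adjusted p 0.082) while Ccl7 did (adjusted p 0.024). The third call among the 28 tested chemokine, cytokine and NF-kappaB genes was a fall of Birc3, an inhibitor of apoptosis (-0.41 ± 0.12, adjusted p 0.0452, and 0.0556 with the set as a block), and the list's median was -0.12. Of 24 genes of gp130 cytokine and JAK-STAT signalling 0 rose and 1 fell (3 higher and 2 lower at an unadjusted p under 0.05, limma, beside 10.7% and 6.3% of all genes tested). The gene that fell was Lifr, the receptor of leukemia inhibitory factor (-0.49 ± 0.14, adjusted p 0.0423, and 0.0979 with the set as a block), for which another probe set gave 0.47 (adjusted p 0.204). Stat3 differed by 0.10 ± 0.10 and its feedback inhibitor Socs3 by -0.26 ± 0.18.

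Immediate-early genes, which are transcribed within minutes of a stimulus, were called only for Jun and Atf3 among 36 tested (9 higher and 1 lower at an unadjusted p under 0.05, beside 10.7% and 6.3% of all genes tested). Fos had 6.50 and 8.31 at 12 h and 7.31 and 8.83 at 16 h, against 6.91, 6.91 and 6.98 at 8 h. Its high values were both in wide-set arrays, and the difference was -0.03 within the narrow set. Egr1 showed the same split, with 8.91 and 9.73 in the b arrays and 8.09 and 8.30 in the a arrays, against 7.70 to 8.08 at 8 h (0.92 ± 0.31, adjusted p 0.0953).

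Several enzymes of sterol and lipid synthesis were higher at 12 and 16 h than at 8 h. The pathway builds cholesterol from acetyl-CoA through mevalonate, squalene and lanosterol, and desaturases finish the fatty acids that go into membranes. Of 26 tested genes 7 rose and 0 fell, and the median was 0.41 beside 0.04 for all genes tested. At an unadjusted p under 0.05, 17 were higher and 0 lower, beside 10.7% and 6.3% of all genes tested. With technical set as a block 4 were higher, and within the narrow set none was called by limma, with a median of 0.20 there beside -0.10 for all genes. Mvd, which decarboxylates mevalonate diphosphate to isopentenyl diphosphate, had 8.42 and 9.61 at 12 h and 8.62 and 9.74 at 16 h, against 7.91, 7.82 and 7.68 at 8 h, a 2.45-fold rise (adjusted p 0.00495) that was 0.72 within the narrow set and 1.87 in the wide-set arrays. Dhcr7, the enzyme of the last step to cholesterol, had 9.55 and 9.87 at 12 h and 9.91 and 10.37 at 16 h, against 9.08, 9.18 and 9.07 at 8 h, with no overlap (0.81 ± 0.14, adjusted p 0.000273). Msmo1, a methylsterol oxidase, had 12.34 and 12.19 at 12 h and 12.48 and 12.53 at 16 h, against 12.15, 12.14 and 11.82 at 8 h, a small difference of 0.35 ± 0.09 (adjusted p 0.0212) of similar size in the narrow set (0.37) and the wide-set arrays (0.32). Hsd17b7 (0.76), Sc5d (0.53), Scd (0.86) and Fads1 (0.62) rose with adjusted p between 0.0248 and 0.0428. With technical set as a block Sc5d (adjusted p 0.0644), Scd (0.16) and Fads1 (0.119) did not pass. A rise over 8 h was not a rise over 1 h for each gene, though the 1 h arrays lie in another technical set. At 1 h Dhcr7 had 10.04 to 10.36 and Mvd 9.16 to 10.12, above their means of 9.92 and 9.10 at 12 and 16 h. Fads1 had 11.35 to 11.56, around its mean of 11.39. Msmo1, Hsd17b7, Sc5d and Scd were below their means of 12 and 16 h in every 1 h array. Of the regulators, Srebf1 differed by -0.01 ± 0.14 and Srebf2 by 0.31 ± 0.14, neither past the test.

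Of the clock genes, 3 fell at 12 and 16 h. Nr1d1 encodes the nuclear receptor REV-ERBα, Per2 and Per3 encode period proteins, and all 3 are driven by the clock activators over each day. Nr1d1 had 5.62 and 6.30 at 12 h and 5.34 and 6.65 at 16 h, against 6.91, 7.0 and 7.45 at 8 h. It fell by 1.14 ± 0.28 on the log2 scale (adjusted p 0.0149), by 1.64 within the narrow set (adjusted p 0.00431). Per3 had 5.99 and 5.71 at 12 h and 6.28 and 5.75 at 16 h, against 6.92, 7.09 and 6.80 at 8 h, a difference of -1.0 ± 0.24 (adjusted p 0.0149) with no overlap. Per2 had 8.31 and 8.01 at 12 h and 7.87 and 7.85 at 16 h, against 8.51, 8.51 and 8.46 at 8 h (-0.48 ± 0.13, adjusted p 0.0321), and its sham 8 h mean was 8.27, below the proximal arrays of that hour. With technical set as a block Per2 did not pass (-0.35, adjusted p 0.0581). These were the 3 calls among 20 tested clock genes, whose median was -0.15. With technical set as a block 6 of the 20 were lower, beside 7.97% of all genes tested. Among them were Nr1d2 (-1.29, adjusted p 5.37e-05), Dbp (-1.34, adjusted p 0.00496) and Tef (-0.67, adjusted p 0.00429). In the fit without the block Nr1d2, Dbp and Tef differed by -0.71, -0.94 and -0.43 and did not pass. Bmal1, the clock activator whose transcription REV-ERB proteins repress, had 7.29 and 7.76 at 12 h and 8.11 and 8.00 at 16 h, against 7.22, 7.20 and 7.27 at 8 h (0.56 ± 0.20, adjusted p 0.119). The labels do not give the time of day of each sample, so hour after lesion and time of day cannot be told apart. Of 20 glucocorticoid-responsive genes 0 were called by limma (1 higher and 5 lower at an unadjusted p under 0.05, beside 10.7% and 6.3% of all genes tested). Fkbp5, which is induced by glucocorticoids, had 8.67 and 9.33 at 12 h and 8.22 and 9.30 at 16 h, against 9.76, 9.89 and 10.19 at 8 h (-1.07 ± 0.34, adjusted p 0.0812), and was called with technical set as a block (-1.52, adjusted p 0.00109). A second probe set of Fkbp5 gave -1.05 without the block (adjusted p 0.00431).

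**Figure D4:**
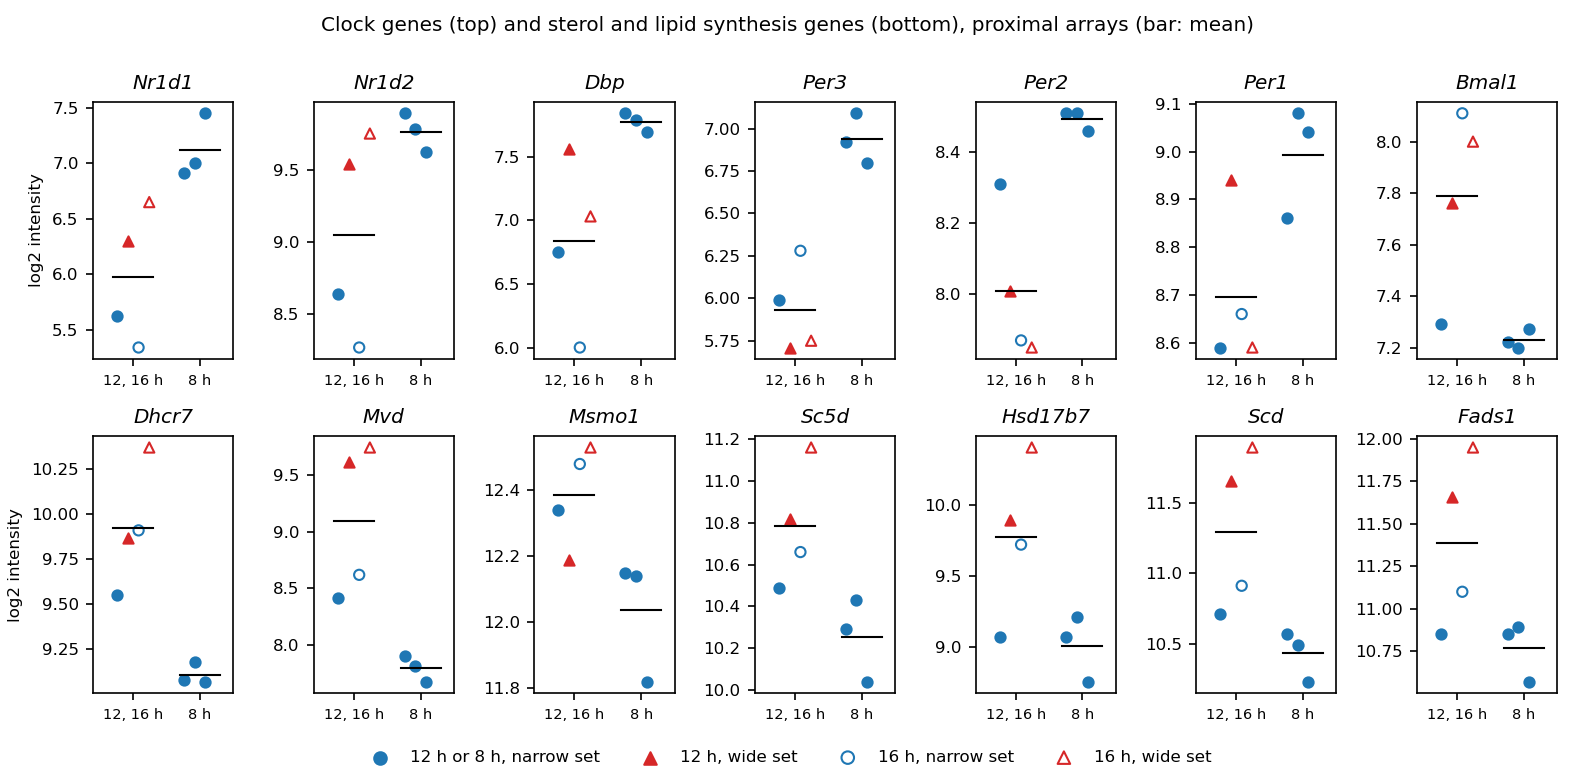
Log2 intensity of 7 clock genes (top row) and 7 genes of sterol and lipid synthesis (bottom row) in the proximal arrays, 12 and 16 h left and 8 h right in each panel, with the mean of each group as a bar and symbols by hour and technical set. Nr1d1, Per3 and Per2 lie below every 8 h array, and for Mvd, Scd and Fads1 the wide-set arrays (triangles) lie well above the narrow-set arrays (circles) of the same hours.

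The promoters of 1 called gene each of the injury, sterol and clock lists are shown so that the motifs searched can be seen in place. RefSeq promoter windows of 300 bases (the last 50 after the gene start, build GRCr8) were searched on both strands for the AP-1 site TGANTCA, the cAMP-response core TGACGT, the E-box CACGTG, the D-box TTANNTAA and the sterol element TCACNCCAC. Gadd45a (chr4:97486750-97487049, minus strand), the gene closest to Atf3 in profile, holds none of them. Msmo1 (chr16:29746863-29747162, plus strand) holds a cAMP-response core from -145 and an AP-1 match from -140, which share a base and are shown in capitals. Per2 (chr9:99496944-99497243, minus strand) holds a D-box, the site bound by DBP and TEF, from -192, in capitals. The sterol and clock promoters shown are not typical of their lists. Of the 7 promoters of sterol and lipid genes that rose, 1 held the AP-1 site and 1 the cAMP-response core, Msmo1 in both cases. Of the 3 promoters of clock genes that fell, 1 held a D-box, that of Per2.
Gadd45a: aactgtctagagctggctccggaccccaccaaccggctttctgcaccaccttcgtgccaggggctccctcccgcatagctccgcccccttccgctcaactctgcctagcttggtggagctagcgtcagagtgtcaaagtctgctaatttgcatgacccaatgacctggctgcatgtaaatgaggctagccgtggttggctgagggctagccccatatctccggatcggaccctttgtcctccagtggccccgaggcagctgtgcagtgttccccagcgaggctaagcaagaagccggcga
Msmo1: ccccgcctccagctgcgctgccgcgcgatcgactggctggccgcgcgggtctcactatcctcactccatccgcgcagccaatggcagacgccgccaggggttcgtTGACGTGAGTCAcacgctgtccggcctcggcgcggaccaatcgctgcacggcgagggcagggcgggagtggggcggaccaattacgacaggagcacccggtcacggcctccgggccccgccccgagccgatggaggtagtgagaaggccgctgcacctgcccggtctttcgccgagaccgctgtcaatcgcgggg
Per2: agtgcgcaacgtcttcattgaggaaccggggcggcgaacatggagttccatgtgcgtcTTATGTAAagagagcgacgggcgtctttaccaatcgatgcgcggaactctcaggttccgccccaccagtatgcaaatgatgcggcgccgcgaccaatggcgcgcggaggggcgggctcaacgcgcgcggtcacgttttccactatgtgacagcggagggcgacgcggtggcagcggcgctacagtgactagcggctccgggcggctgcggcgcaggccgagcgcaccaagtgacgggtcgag

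Across all 27457 promoter windows the AP-1 site was found in 7.33%, the cAMP-response core in 8.22%, the E-box in 6.65%, the D-box in 5.81% and the sterol element in 1.13%. Among the 158 promoters available for genes that rose, 9 held the AP-1 site (5.70%) and 17 the cAMP-response core (10.8%), beside 5.12% and 11.3% of the promoters of all genes tested. For the 69 promoters of genes that fell, 4 held a D-box (5.80%, beside 3.11%) and 4 an E-box (5.80%, beside 9.27%). The sterol element was in 0 of the 7 promoters of sterol and lipid genes that rose, and in 3 of the 158 promoters of all genes that rose, beside 1.05% of those of all genes tested. A match describes letters in the window, not a bound site.

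Several falls were larger in the wide-set arrays than within the narrow set. Syt1, the calcium sensor of synaptic vesicles, had 7.74 and 6.59 at 12 h and 7.57 and 6.37 at 16 h, against 8.43, 8.92 and 8.37 at 8 h. It fell by 1.51 ± 0.44 (adjusted p 0.0477), by 0.92 within the narrow set and by 2.09 in the wide-set arrays, and with the set as a block it did not pass (adjusted p 0.128). Pclo, a scaffold of the presynaptic active zone, fell by 0.85 ± 0.23 (adjusted p 0.0321), with 6.10 to 6.82 at 12 and 16 h and 7.22 to 7.52 at 8 h, and by 1.09 in the wide-set arrays and 0.61 within the narrow set. Nenf, a secreted neurotrophic protein, had 8.45 and 7.36 at 12 h and 8.24 and 7.11 at 16 h, against 8.99, 8.66 and 9.18 at 8 h, and fell more in the wide-set arrays (-1.71) than within the narrow set (-0.60). Sat1, which acetylates spermidine and spermine, fell by 0.83 ± 0.16 (adjusted p 0.00237), with 11.07 to 11.87 at 12 and 16 h and 12.23 to 12.50 at 8 h. Its difference was -1.11 in the wide-set arrays and -0.55 within the narrow set. Cyria, which binds Rac1, fell by 0.88 ± 0.24 (adjusted p 0.0361) and RGD1562465 by 0.99 ± 0.24 (adjusted p 0.0168). Within the narrow set these were -0.49 and -0.44, and with technical set as a block neither passed (adjusted p 0.119 for Cyria and 0.0508 for RGD1562465).

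Ctla2a, Slc28a2, Htr1d and Grhl3 fell more within the narrow set than in the wide-set arrays. Ctla2a, named for homology to a protease inhibitor propeptide, had 6.35 and 6.84 at 12 h and 6.30 and 6.96 at 16 h, against 7.65, 7.59 and 7.65 at 8 h. The 8 h arrays were nearly equal and no later array reached them, with a difference of -1.02 ± 0.18 (adjusted p 0.000871) -1.31 within the narrow set and -0.73 in the wide-set arrays. Slc28a2, a nucleoside transporter, had 6.28 and 6.66 at 12 h and 6.28 and 6.65 at 16 h, against 7.13, 7.32 and 8.07 at 8 h (-1.04 ± 0.27, adjusted p 0.027), and -1.23 within the narrow set. Htr1d, a serotonin receptor of sensory neurons, had 8.11 and 8.43 at 12 h and 7.50 and 7.80 at 16 h, against 8.55, 8.77 and 8.78 at 8 h, a fall of 0.74 ± 0.16 (adjusted p 0.00552). It was the 1 call among 35 tested nociceptor and sensory receptor genes in the fit without the block, and both 16 h arrays were below both 12 h arrays. With technical set as a block 5 of the 35 were lower and 1 higher, beside 7.97% and 1.36% of all genes tested. Gria2 was among those lower (-1.02, adjusted p 0.00518, limma), with -1.29 within the narrow set. Another probe set of Gria2 gave -0.12 without the block. Grhl3, a grainyhead-like factor, fell by 0.83 ± 0.22 (adjusted p 0.0312), and by 0.94 within the narrow set.

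Ion channels of the sensory neuron were not called in the fit without the block. Among 40 voltage-gated potassium, HCN, sodium and calcium channel genes 0 passed in either direction by limma, with a median of 0.03. At an unadjusted p under 0.05, 2 were higher and 3 lower, beside 10.7% and 6.3% of all genes tested. With technical set as a block 0 were higher and 3 lower, beside 1.36% and 7.97% of all genes tested. The nociceptor sodium channel Scn10a had 11.44 and 11.42 at 12 h and 10.94 and 11.48 at 16 h, against 11.38, 11.27 and 11.13 at 8 h, and the capsaicin receptor Trpv1 differed by 0.13 ± 0.12. Of 16 transcription factors of sensory neuron identity 3 rose and 0 fell, with a median of 0.47 that was 0.09 within the narrow set. At an unadjusted p under 0.05, 4 were higher and 0 lower, beside 10.7% and 6.3% of all genes tested. Runx1, a factor of nociceptor identity, had 8.93 and 9.69 at 12 h and 8.50 and 9.69 at 16 h, against 8.22, 8.64 and 7.94 at 8 h, so 16 h a overlapped with 8 h (0.94 ± 0.25, adjusted p 0.0291). Another probe set of Runx1 gave 0.22 (adjusted p 0.707 by limma). Zeb2 rose by 1.04 ± 0.23 and Lmo4 by 0.59 ± 0.15, but dim probe sets of both gave the opposite sign (-0.72 and -0.91 for Zeb2, -0.30 for Lmo4, none past the test), and Lmo4 did not pass with technical set as a block (adjusted p 0.0804).

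Other lists held at most 2 calls each. Among 32 tubulin, microtubule and growth cone genes Marcks and its relative Marcksl1 rose, Marcksl1 by 0.53 ± 0.11 (adjusted p 0.00349) with 11.32 to 11.43 at 12 and 16 h and 10.66 to 11.09 at 8 h. Of 25 MAP kinases and phosphatases the feedback inhibitors Spry2 (0.89 ± 0.20) and Dusp7 (0.91 ± 0.27) rose, Dusp7 not with the set as a block (adjusted p 0.154). Tnc, the matrix glycoprotein tenascin-C, had 7.73 and 8.84 at 12 h and 8.43 and 9.15 at 16 h, against 7.20, 7.26 and 6.85 at 8 h, the 1 rise among 38 collagen and matrix genes (1.44 ± 0.30, adjusted p 0.00349), and its sham 8 h mean was 8.15. The amino acid transporter Slc7a5 rose 2.16-fold (adjusted p 0.00552), the 1 call of 37 genes of protein and amino acid stress. Of 26 cell cycle genes Ccnd1 rose 2.02-fold (adjusted p 0.0025). Among 32 dynein, dynactin and kinesin genes the dynein light chain Dynlrb1 fell by 0.37 ± 0.07 (adjusted p 0.00129). Importins (29 tested), BMP and TGF-beta genes (29), interferon response genes (31), ribosomal proteins (27) and oxidative phosphorylation genes (33) had 0 calls by limma. At an unadjusted p under 0.05, 6 ribosomal and 7 oxidative phosphorylation genes were lower and 1 and 0 higher, beside 6.3% and 10.7% of all genes tested. With technical set as a block 9 and 11 were called lower, beside 7.97% of all genes tested. That fit also called 4 BMP and TGF-beta genes, 2 importin genes and 1 interferon response gene lower.

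**Figure D5:**
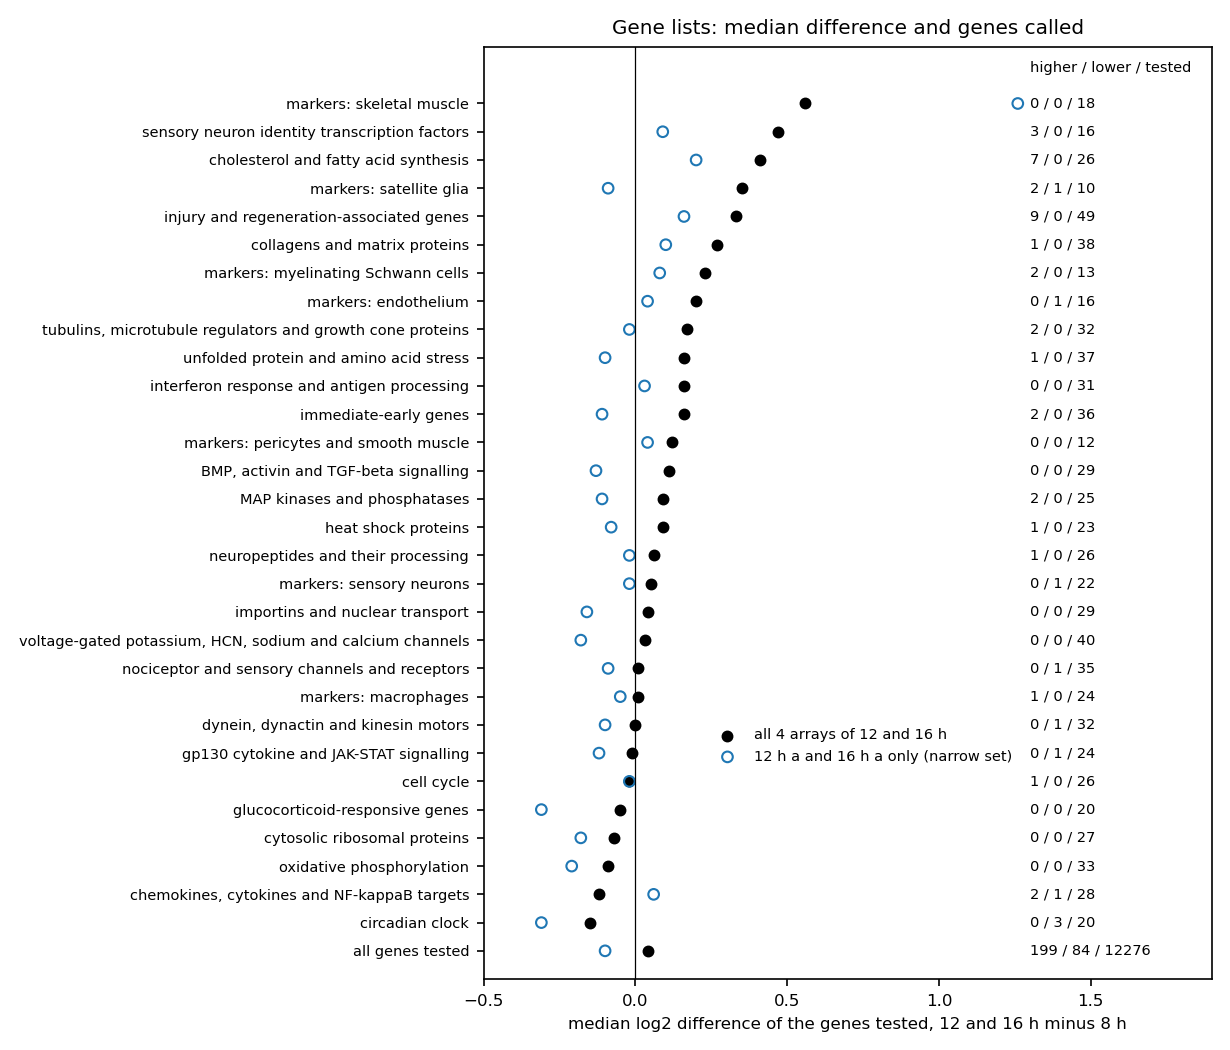
Median log2 difference of the tested genes of each list with at least 10 of them (rows), for all 4 arrays of 12 and 16 h (filled) and for 12 h a and 16 h a alone (open), with the numbers called higher, called lower and tested at the right and all 12276 genes in the last row. The injury list and the cholesterol and fatty acid list stay above the row of all genes in both versions (0.33 and 0.16, and 0.41 and 0.20). So do other lists, among them sensory neuron identity factors (0.47 and 0.09) and collagens and matrix proteins (0.27 and 0.10). The skeletal muscle list is moved by 12 h a.

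The hours were also compared one at a time. At 12 h alone 16 genes were higher (0.13% of genes tested) and 6 lower (0.0489%) than at 8 h, 0.179% in all, and at 16 h alone 227 were higher (1.85%) and 113 lower (0.92%), 2.77% in all. Atf3 (3.52), Reg3b (1.70), Fabp7 (1.67) and Vgf (1.35), and Sox11 and Meox1 from 8 h means under the filter level, had already risen at 12 h, whereas Gadd45a (1.15, adjusted p 0.173), Reg3a (1.13, adjusted p 0.224), Flrt3 (0.89, adjusted p 0.345) and Jun (1.06, adjusted p 0.0837) passed only in the test at 16 h. That does not show a difference between the hours. In the direct test of 16 h against 12 h, 13 genes were lower (0.106%) and 0 higher by limma, beside 694 lower and 263 higher at an unadjusted p under 0.05.

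The 13 genes lower at 16 h than at 12 h included several of synaptic vesicles and channels. Rph3a, a vesicle protein that binds Rab3, had 5.18 and 5.84 at 16 h, against 7.73 and 6.80 at 12 h, with 6.03, 6.43 and 6.01 at 8 h (-1.76 ± 0.31, adjusted p 0.00893). Slc17a7, the vesicular glutamate transporter VGLUT1, had 10.17 and 10.81 at 16 h, against 11.74 and 11.44 at 12 h (-1.10 ± 0.24, adjusted p 0.0297). The others were the potassium channels Kcnc4 and Kcnh2, the glutamate receptor Grm4, Sncb (beta-synuclein), the endocytic adaptor Epn1, the elongation factor Eef1a2, Wbp2, Pianp, Prrt3, Lpcat4 and Dhdds. In all 13 both 16 h arrays lay below both 12 h arrays (10.6% of all genes tested did), in 12 of them both 12 h arrays were above every 8 h array, and in 7 both 16 h arrays were below every 8 h array. The test compared these 16 h and 12 h arrays, so their order describes the calls and is no further support. None of the 13 was called for 12 and 16 h against 8 h together. The summed level of spinal cord markers was 1950 and 2743 at 16 h and 4315 and 3833 at 12 h, but without Slc17a7 it was 796.1 and 948.7 at 16 h and 905.2 and 1052 at 12 h. The number called in this comparison moved when any array of 12 or 16 h was left out. That leaves 1 array in an hour, so no count is given.

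The distal lesion gave a separate look at the same hours, with all 10 of its arrays in 1 technical set. There 44 genes were higher (0.358% of genes tested) and 7 lower (0.057%) at 12 and 16 h than at 8 h. Of the 199 genes that rose after the proximal lesion 28 were also called higher after the distal one, which is 14.1% of the 199 and 63.6% of the 44, and Nr1d1 and Cdo1 were lower in both. The shared rises included Atf3 (3.80 proximal and 2.67 distal), Reg3b (2.45 and 2.34), Reg3a (1.73 and 1.73), Fabp7 (2.25 and 1.56), Gadd45a (1.49 and 1.33), Flrt3 (1.46 and 1.25), Ccl7 (0.92 and 1.45), Ccl2 (0.94 and 1.13), Nabp1 (1.47 and 0.96), Dhcr7 (0.81 and 0.56) and Msmo1 (0.35 and 0.43), as well as Sox11 and Meox1, whose proximal 8 h means were under the filter level. Nr1d1 fell by 1.14 after the proximal and by 1.40 after the distal lesion (adjusted p 0.000179 for the distal lesion).

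The difference between the 2 changes was tested directly and held for 1 gene (0.00815%), with 607 higher and 401 lower at an unadjusted p under 0.05. That gene was Nanp, a phosphatase of sialic acid synthesis, with 7.0 and 6.79 at 12 h and 6.98 and 6.88 at 16 h, against 7.43, 7.30 and 7.21 at 8 h after the proximal lesion. Its change was -0.40 after the proximal lesion and 0.40 after the distal one, a difference of -0.80 ± 0.15 (adjusted p 0.0353). For Atf3 the difference of the changes was 1.13 ± 0.62 (adjusted p 0.641), for Reg3b 0.10 ± 0.43, for Syt1 -2.53 ± 0.57 (adjusted p 0.18) and for Hspa2 1.41 ± 0.36 (adjusted p 0.259).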

How the data were processed

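Gene expression in rat dorsal root ganglia was measured on Affymetrix rat arrays. Values were deposited on a log2 scale, 1 for each probe set and array, after RMA by the authors, per the submitters' processing notes; the version and whether all arrays were normalized together are not given in the sources used here. Of 31099 probe sets, 57 controls were left out, 20826 had 1 gene symbol in the platform annotation, 436 several and 9780 none, and only those with 1 symbol were named. For each of 14217 genes the probe set brightest on average over the 72 arrays was used, and means under the 25th percentile (5.46) were left out. Where a group mean lies under that level the fold is a lower bound against it.

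The fit was made in R 4.3.3 with limma 3.58.1 (files were read by the data.table package, version 1.17.8): 24 group means of lesion and hour on all arrays, 48 residual degrees of freedom, trended empirical Bayes, two-sided, Benjamini-Hochberg adjusted over 12276 genes. Scripts were tested on simulated data. Technical sets came from Ward clustering cut at a chosen number of 4 sets. Named genes were the 10 largest rises and falls, the 5 largest in the fit with the set as a block, 3 members of each list and a fixed set of 25; Crem, Srxn1, Hsd17b7, Sc5d, Scd, Fads1, Srebf1, Srebf2, Nr1d2, Tef, Bmal1, Nanp and the 13 genes of 16 h against 12 h were chosen after their values were seen. The members, the lists and the motifs were chosen with earlier results of these data known. Arrays were not treated as paired by letter. Deviations of 12 h and 16 h arrays of a letter correlated at 0.807. Letter and technical set coincide at these hours, so pairing by letter cannot be told apart from the set. Deviations of these arrays and of 8 h arrays with the same letter correlated between -0.211 and 0.147.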

Additional observations from a re-analysis of the deposited data

Results flagged for a closer look

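In Stat3, a transcription factor of cytokine signalling, 16 h a was far below the other 3 arrays of 12 and 16 h, at 10.55 where they held 10.98 to 11.05. The same array was far below the others in Scn10a, the nociceptor sodium channel, at 10.94 where they held 11.42 to 11.48. Such a gap arises by chance in about 1 of 20 groups tested, and 16 h a also had the lowest sum of sensory neuron markers.

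The change over 8 h differed between the hours for 13 genes, lower at 16 h than at 12 h in each. The difference was -1.76 for Rph3a, -1.69 for Wbp2, -1.29 for Epn1, -1.28 for Prrt3, -1.19 for Grm4, -1.10 for Slc17a7, -1.08 for Eef1a2 and -1.04 for Pianp. It was -0.89 for Dhdds, -0.85 for Kcnc4, -0.80 for Kcnh2, -0.69 for Sncb and -0.64 for Lpcat4. In 12 of the 13 genes 16 h a was the lowest of the 7 arrays; in Wbp2 16 h b was. The change also differed between the lesions for Nanp, by -0.80.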

How the results depend on the processing

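The counts for 12 and 16 h against 8 h (283 genes) depended strongly on the processing, while every one of the 283 that an alternative tested kept its sign in each refit with the same probe sets. The count was 745 (462 higher, 283 lower) after a further quantile normalization, 16 with array weights, 2 in a fit of the 7 arrays alone, 48 (39 higher, 9 lower) in a fit of the 22 proximal arrays, 1145 with technical set as a block, 23 within the narrow set and 22 for 12 h alone. Among alternatives chosen after seeing the data it was 1004 (324 higher, 680 lower) with the set as a block on the 7 arrays and 4114 (3122 higher, 992 lower) for the wide-set arrays against 8 h. Leaving out 1 array gave 42 to 1488 genes: 1218 without 12 h a, 42 without 12 h b, 1488 without 16 h a, 47 without 16 h b, 114, 128 and 55 without 8 h a, b or c. No filter (267), the 50th percentile (257) and leaving out sham arrays of 12 and 16 h (355) stayed within 1.5 times. The array letter as a replicate block, fitted on the 7 arrays, gave 2 genes and 0 for 16 h against 12 h, where letter and technical set coincide at 12 and 16 h.

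For 16 h against 12 h (13 genes) the count was 23, 0 with array weights, 0 on the 7 arrays, 3 on the proximal arrays, 171 with the set as a block, 21 within the narrow set, 735 with the block on the 7 arrays, 0 for the wide set and 0 to 318 leaving out an array. For proximal against distal (1 gene) it was 8, 0 with weights, 36 with the block (4 higher, 32 lower) and 0 to 80. Other probe sets turned the sign for Lifr (0.47), Aif1 (-0.92), Zeb2 (-0.72 and -0.91) and Lmo4 (-0.30); the causes were not tested. With 2 arrays an hour and letter tied to technical set, the size of each change is uncertain. The refits reuse the arrays that chose the 283 genes, so the shared sign is no separate evidence.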

Other observations

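Of the 23 genes called with the narrow-set arrays 12 h a and 16 h a alone, 18 were also called with all 4 arrays, and several lie outside the groups described above; the ones given here were chosen after their values were seen. Ephx1, an epoxide hydrolase of xenobiotic metabolism, had 9.53 and 9.60 at 12 h and 9.16 and 9.46 at 16 h, against 10.06, 10.24 and 10.18 at 8 h, and fell by 0.72 ± 0.11 on the log2 scale (SE, limma, adjusted p 0.000116), by 0.81 within the narrow set. Tiparp, a poly(ADP-ribose) polymerase induced through the aryl hydrocarbon receptor, had 9.74 and 9.85 at 12 h and 9.69 and 9.90 at 16 h, against 10.36, 10.41 and 10.33 at 8 h (-0.57 ± 0.11, adjusted p 0.00158). The wide-set arrays 12 h b and 16 h b were below 8 h by a log2 difference of -0.63 for Ephx1 and -0.48 for Tiparp, and every array of 12 and 16 h was below every array of 8 h for both genes.

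Wee1, a kinase that restrains entry into mitosis and is also a clock-controlled gene, had 8.63 and 8.85 at 12 h and 8.11 and 8.38 at 16 h, against 9.12, 9.11 and 8.97 at 8 h (-0.57 ± 0.14, adjusted p 0.0142). Acat2, which joins acetyl-CoA units at the start of the mevalonate pathway, had 11.75 and 11.40 at 12 h and 11.71 and 11.51 at 16 h, against 11.21, 11.25 and 11.11 at 8 h. It rose by 0.40 ± 0.08 (adjusted p 0.00349), and by 0.54 within the narrow set (adjusted p 0.00122).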
